A study of Mus musculus with 8 samples.

Results

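The blood vessels of the islet were examined through 32 genes of endothelial cells, the cells that line vessels, and of angiogenesis, the growth of vessels from existing ones. The genes were chosen by name, with earlier results of these data known. Every probe set of the array whose annotation names 1 of them alone was taken. These were 57 probe sets, out of 45037 non-control probe sets that name 18193 genes. The probe set with the highest mean over the 8 arrays stands for its gene. The samples were total RNA of pancreatic islets from AKR/J mice and from C57Bl/6J mice, both inbred strains and both kept for 3 months on a high-fat diet, with 4 samples of each strain. Each sample pooled 2 mice and went on its own array. Arrays 1 to 4 carry AKR/J and arrays 5 to 8 carry C57Bl/6J. Having 4 samples per strain limits precision. The p-values set the strain difference against the spread among samples of a strain. Differences between pools and between arrays cannot be told apart in that spread. Mice on other diets were not analysed here, and the ages and sexes of the mice are not given in the sources used here.

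Islet capillaries are dense and fenestrated, and they carry glucose to the endocrine cells and hormones away from them. Beta cells secrete vascular endothelial growth factor A (Vegfa), which acts on the receptor tyrosine kinase Kdr of nearby endothelial cells, while angiopoietins act on the receptor tyrosine kinase Tek. Endothelial cells hold together through adherens and tight junctions, built on VE-cadherin (Cdh5), claudin-5 (Cldn5) and adhesion molecules of the immunoglobulin family.

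Of the 32 genes, 28 were detected on at least 4 of 8 arrays and were tested, as were 10573 of all 18193 genes. The remaining 4 members were Flt4, Erg, Angpt1 and Angpt2. The endothelial genes Pecam1, Cdh5, Kdr, Plvap and Esam were detected on all 8 arrays. Angpt1 and Angpt2 were not detected on any array. All values are log2 intensities, and differences are AKR/J minus C57Bl/6J with the standard error (SE) of the fit. In these bulk samples, fewer cells of a type and less RNA per cell cannot be told apart.

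Of the 28 genes tested, 6 were higher in AKR/J, 0 were lower and 22 did not pass an adjusted p of 0.05 (limma with Benjamini-Hochberg adjustment over 20772 probe sets). The 6 were the junction genes Cdh5 and Esam, the receptor genes Ramp2, Tek and Acvrl1 and the surface glycoprotein gene Clec14a, at 1.25-fold to 1.71-fold. They make up 21.4% of the genes tested, where the shares over all 10573 genes tested were 7.9% higher and 8.73% lower. At an unadjusted p under 0.05 in limma the members gave 12 higher and 0 lower of 28. All 10573 genes tested gave 1718 higher and 1820 lower. The 4 AKR/J arrays all lay above the 4 C57Bl/6J arrays for 8 of the 28 genes (28.6%), against 13.3% of all genes, and 24 of 28 had the higher mean in AKR/J, against 49.7% of all genes. The median log2 difference was 0.18 over the 28 genes and 0.15 over all 32, beside 0.00 over all genes tested. The count depended on the processing: it was 1 with the MAS5-type signals of the per-array files, 3 with no filter on dim probe sets, and 10 with the arrays centred on their medians. The share of all probe sets called in either direction moved too, from 14.3% to 10.9%, 4.64% and 15.2% in turn.

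**Figure D1:**
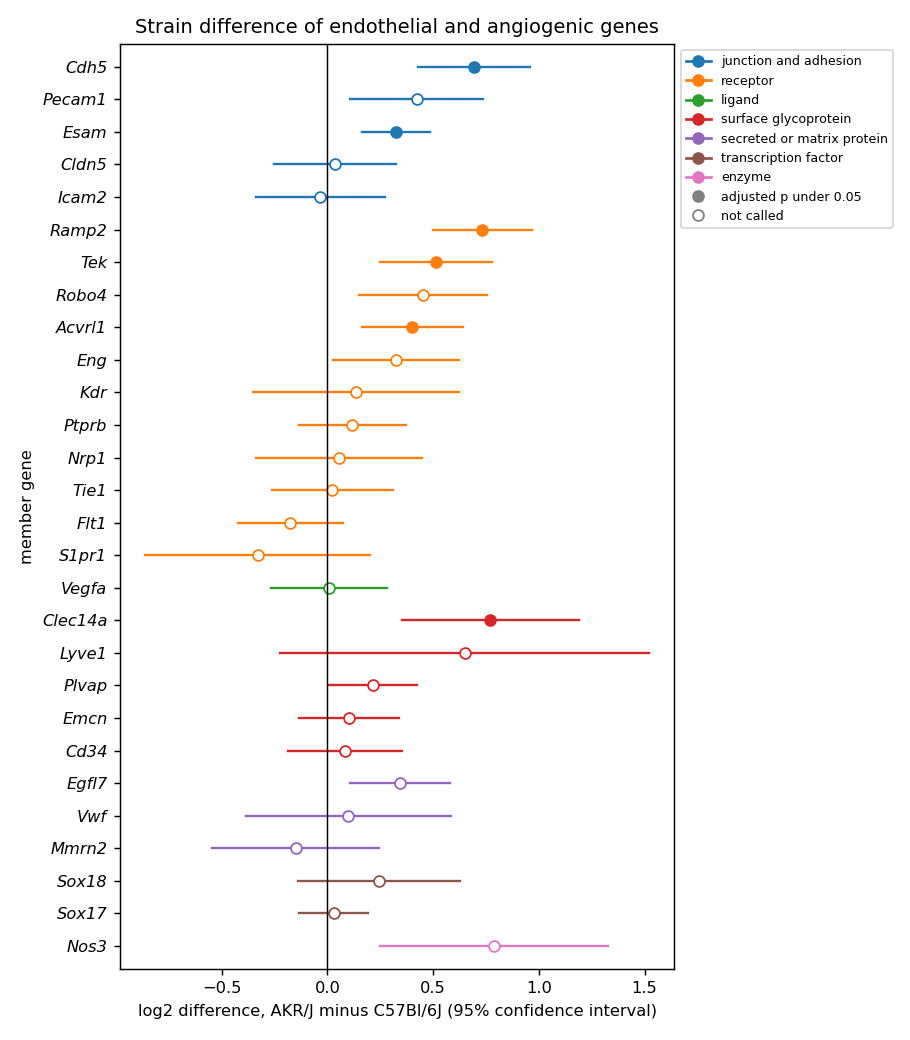
Log2 difference, AKR/J minus C57Bl/6J, of the 28 member genes tested (points) with 95% confidence intervals (lines), grouped by role from top to bottom; filled points have an adjusted p under 0.05. The 6 filled points lie between 0.32 and 0.77, and no filled point lies left of 0.

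Promoter sequences are shown for Tek and Clec14a, the 2 genes among the 6 with an entry in the RefSeq promoter table (GRCm38.p6), and for Tie1, the receptor most closely related to Tek, which was not called. Each runs 5′ to 3′ on the gene's strand over 300 bases, 250 before the annotated start and 50 after it. Capitals mark AGGAAG or CGGAAG on either strand. These are some of the forms bound by ETS factors such as Erg, which drive many endothelial genes.
Tek (chr4:94739039-94739338, plus strand): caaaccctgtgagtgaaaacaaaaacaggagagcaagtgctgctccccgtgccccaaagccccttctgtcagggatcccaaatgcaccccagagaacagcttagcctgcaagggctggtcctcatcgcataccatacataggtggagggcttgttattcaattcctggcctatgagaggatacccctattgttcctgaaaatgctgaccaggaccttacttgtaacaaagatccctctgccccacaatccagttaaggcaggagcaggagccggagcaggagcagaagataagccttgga
Clec14a (chr12:58269209-58269508, minus strand): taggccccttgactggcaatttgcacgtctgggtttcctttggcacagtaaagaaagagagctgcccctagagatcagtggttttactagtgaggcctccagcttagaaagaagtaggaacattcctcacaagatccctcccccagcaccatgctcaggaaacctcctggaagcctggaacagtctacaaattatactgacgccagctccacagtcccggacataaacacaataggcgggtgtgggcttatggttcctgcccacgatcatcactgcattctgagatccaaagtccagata
Tie1 (chr4:118489800-118490099, minus strand): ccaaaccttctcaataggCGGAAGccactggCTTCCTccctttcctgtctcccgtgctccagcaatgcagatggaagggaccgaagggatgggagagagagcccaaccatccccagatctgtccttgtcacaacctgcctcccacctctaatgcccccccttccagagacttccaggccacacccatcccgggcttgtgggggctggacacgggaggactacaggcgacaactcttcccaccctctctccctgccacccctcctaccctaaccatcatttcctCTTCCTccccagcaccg
The marked forms occur 3 times in the Tie1 window and 0 times in the Tek and Clec14a windows. The shorter letters GGAA occur in all of these windows but were not marked or counted. The marked forms were also absent from the windows of Cldn5, Kdr and Vegfa, which were not called. Of 11 members tested and not called that had a promoter in the table, 8 had a match. A match was present in 10 of 20 promoters of 15 member genes, and in 46.5% of all 32851 promoters in the table, so the members' share lies near that of promoters at large. These are matches of letters and were not tested as binding sites.

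Among the junction and adhesion genes, 2 of 5 were higher in AKR/J and the median log2 difference was 0.32. Cdh5, the cadherin of endothelial adherens junctions, was at 5.01, 5.18, 5.04 and 4.97 on the AKR/J arrays and at 4.10, 4.62, 4.43 and 4.28 on the C57Bl/6J arrays. Every AKR/J array lay above every C57Bl/6J array, and the difference was 0.69 ± 0.12 (SE; 1.62-fold; limma adjusted p = 0.00626). Esam, an immunoglobulin-family adhesion molecule of tight junctions, was at 9.02, 9.02, 9.04 and 8.95 in AKR/J and at 8.60, 8.61, 8.81 and 8.72 in C57Bl/6J. The AKR/J arrays spread little (SD 0.04) and did not overlap with C57Bl/6J, at 1.25-fold (adjusted p = 0.0179).

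The other junction genes were not called. Pecam1, which mediates contact between endothelial cells, was at 8.03, 7.87, 8.11 and 7.63 in AKR/J and at 7.51, 7.71, 7.52 and 7.22 in C57Bl/6J. AKR/J array 4 lay below C57Bl/6J array 6, so the strains overlapped (difference 0.42 ± 0.14 SE, limma adjusted p = 0.0771). Cldn5, the main claudin of endothelial tight junctions, was detected on 3 of 4 arrays of each strain, and averaged 2.99 ± 0.20 in AKR/J against 2.95 ± 0.17 in C57Bl/6J (SD, n = 4 each). Icam2, a leukocyte ligand at endothelial junctions, averaged 6.45 ± 0.26 in AKR/J against 6.49 ± 0.11 in C57Bl/6J, with a 95% confidence interval of the difference from -0.34 to 0.27.

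Receptors were the largest group, with 3 of 11 tested genes higher in AKR/J, 0 lower and a median of 0.13. Ramp2, the membrane protein that turns the calcitonin-receptor-like receptor into a receptor for adrenomedullin, had the smallest adjusted p of all members. Its values were 8.28, 8.23, 8.55 and 8.17 in AKR/J and 7.53, 7.65, 7.43 and 7.68 in C57Bl/6J. The lowest AKR/J array lay well above the highest C57Bl/6J array, and the difference was 0.73 ± 0.10 (SE; 1.66-fold; limma adjusted p = 0.0027). No other member passed by its brightest probe set when the MAS5-type signals were fitted, where Ramp2 differed by 0.56 (limma adjusted p = 0.0106). Over all member probe sets, 2 passed with those signals. Another 2 probe sets are annotated to both Ramp2 and its neighbour Vps25 and were left out.

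Tek, the angiopoietin receptor, was at 7.26, 7.14, 7.36 and 7.25 in AKR/J and at 6.79, 6.88, 6.86 and 6.41 in C57Bl/6J. The strains did not overlap, with C57Bl/6J array 8 the lowest of all (difference 0.51 ± 0.11 SE; 1.43-fold; limma adjusted p = 0.0218). The call was lost without AKR/J array 1, 3 or 4, at adjusted p-values of 0.0562, 0.0506 and 0.0553. Leaving out any 1 array also lowered the share of all probe sets called, from 14.3% to between 9.85% and 13.6%. Tie1, the related receptor that pairs with Tek, was at 6.03, 5.65, 6.23 and 5.81 in AKR/J and at 6.00, 5.83, 5.93 and 5.86 in C57Bl/6J, fully overlapping, with an interval of the difference from -0.26 to 0.31. Ptprb, the phosphatase that acts on Tek and on the cadherin complex, differed by 0.12 (interval -0.13 to 0.37; adjusted p = 0.515). Whether Tek and Tie1 differ from each other in their strain difference was not tested.

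Acvrl1, a receptor for bone morphogenetic proteins of the circulation, was at 5.73, 6.05, 6.19 and 5.96 in AKR/J and at 5.48, 5.65, 5.56 and 5.64 in C57Bl/6J. The closest pair, AKR/J array 1 and C57Bl/6J array 6, stood 0.08 apart (difference 0.40 ± 0.10 SE; 1.32-fold; limma adjusted p = 0.0371). Its call held without AKR/J array 1 and was lost without any other single array (adjusted p from 0.0629 to 0.096). A second, dimmer probe set of Acvrl1 gave 0.29, with overlapping strains, and was not called (adjusted p = 0.265). Endoglin (Eng), its co-receptor, was at 8.66, 8.29, 8.69 and 8.42 in AKR/J and at 8.34, 8.38, 8.07 and 7.98 in C57Bl/6J, overlapping and not called (difference 0.32, adjusted p = 0.136).

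The receptors of the vascular endothelial growth factors were not called. Kdr, the main signalling receptor for Vegfa, was at 8.51, 8.30, 9.27 and 8.66 in AKR/J and at 8.31, 8.45, 8.84 and 8.61 in C57Bl/6J. AKR/J array 3 was the highest and array 2 the lowest of all 8 (difference 0.13 ± 0.21 SE, adjusted p = 0.711). Flt1, which binds Vegfa and also acts as a decoy, was at 9.02, 8.83, 9.26 and 8.79 in AKR/J and at 9.20, 9.11, 9.19 and 9.10 in C57Bl/6J by its brightest probe set. That difference was -0.17, while its other 3 tested probe sets gave 0.40, 0.62 and 0.03, and none of the 4 was called (adjusted p from 0.068 to 0.967). Nrp1, a co-receptor for Vegfa and for semaphorins, averaged 9.98 ± 0.29 in AKR/J against 9.93 ± 0.25 in C57Bl/6J. Flt4, the receptor of lymphatic vessels, was detected on 1 array of each strain and was not tested (6.42 to 6.88 in AKR/J, against 6.49 to 6.59 in C57Bl/6J).

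Robo4, a receptor that stabilises vessels, was at 6.37, 6.21, 6.82 and 6.30 in AKR/J and at 6.08, 5.95, 5.92 and 5.93 in C57Bl/6J. The arrays did not overlap, but the adjusted p was 0.0558 in limma (difference 0.45 ± 0.13 SE). S1pr1, the receptor for sphingosine 1-phosphate, was at 5.84, 5.65, 5.92 and 5.21 in AKR/J and at 6.31, 6.37, 5.69 and 5.57 in C57Bl/6J. Its difference of -0.33 was the most negative of the members (interval -0.86 to 0.20), and the strains overlapped.

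**Figure D2:**
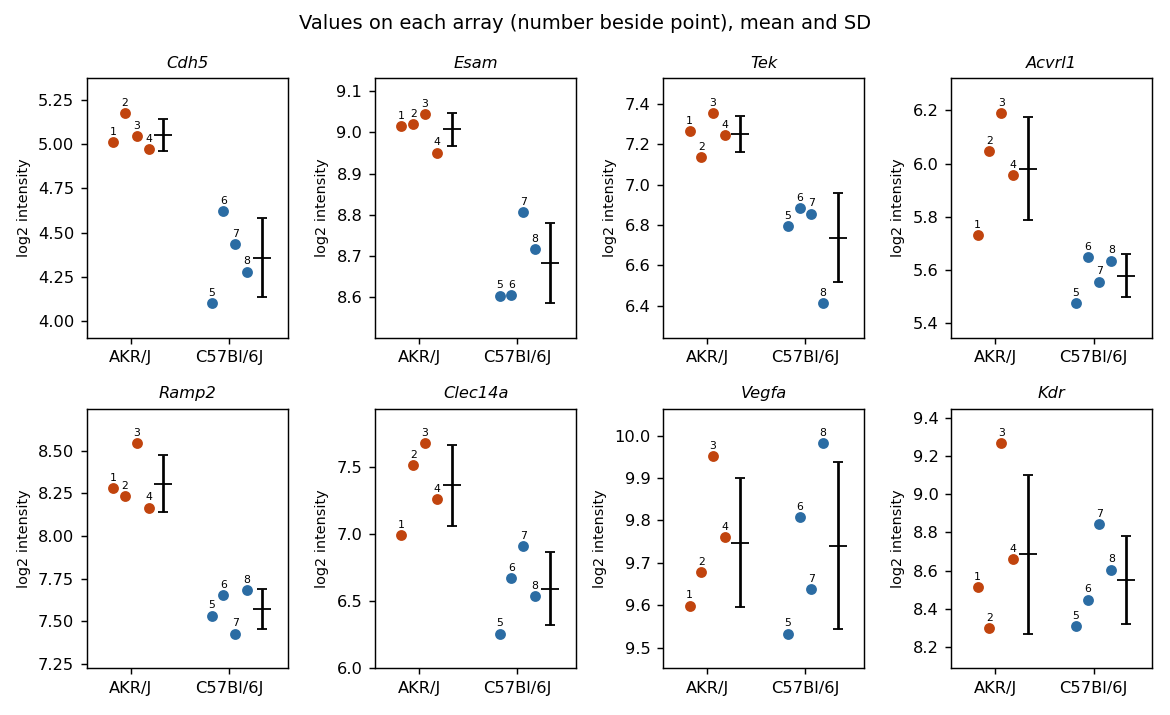
Log2 intensity on each array (points, array number beside each) for the 6 genes higher in AKR/J and for Vegfa and Kdr, with AKR/J left and C57Bl/6J right in each panel; bars are the mean ± SD of 4 arrays. The strains do not overlap in the 6 panels of called genes and overlap for Vegfa and Kdr.

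Of the ligands, Vegfa alone was detected. It was at 9.60, 9.68, 9.95 and 9.76 in AKR/J and at 9.53, 9.81, 9.64 and 9.98 in C57Bl/6J, with 1 array of C57Bl/6J at either end of the range. The difference was 0.01 ± 0.12 (SE; interval -0.27 to 0.28; limma adjusted p = 0.974), and a second probe set gave 0.19 (adjusted p = 0.372). Angpt1, which activates Tek, and Angpt2, which can block or activate it, were listed at 2.36 to 2.85 and 4.66 to 4.67 in AKR/J, against 2.31 to 2.35 and 4.63 to 4.82 in C57Bl/6J. None of these values was above background, so ligands could be compared with junction and receptor genes through Vegfa only. By role, the medians over all genes with a probe set were 0.32 for junction genes, 0.16 for receptors and 0.01 for ligands, the last over 3 genes. The order of junction genes and receptors turned with the MAS5-type signals (0.25 and 0.26), and the receptor median was 0.28 without AKR/J array 2.

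Among the 5 surface glycoproteins, Clec14a was higher in AKR/J. This C-type lectin of vessel sprouts was at 6.99, 7.51, 7.68 and 7.26 in AKR/J and at 6.25, 6.67, 6.90 and 6.53 in C57Bl/6J. The lowest AKR/J array stood above the highest C57Bl/6J array (difference 0.77 ± 0.18 SE; 1.71-fold; limma adjusted p = 0.0271). A dimmer probe set of Clec14a gave 0.32 and was not called (adjusted p = 0.451), and the call held without AKR/J array 1 or C57Bl/6J array 7 but was lost without any other single array (adjusted p from 0.0554 to 0.0751).

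Plvap, the protein of the diaphragms that span fenestrae, was at 11.33, 11.05, 11.09 and 11.34 in AKR/J and at 10.93, 10.97, 11.11 and 10.94 in C57Bl/6J. C57Bl/6J array 7 lay within the AKR/J range, and the difference of 0.22 was not called (interval 0.01 to 0.43; adjusted p = 0.155). Emcn and Cd34, sialomucins of the capillary surface, were not called, at differences of 0.10 (interval -0.13 to 0.34) and 0.08 (interval -0.19 to 0.35). Lyve1, a hyaluronan receptor of lymphatic endothelium and of some macrophages, varied most within both strains, at 8.29, 7.01, 8.06 and 7.92 in AKR/J and at 7.57, 7.65, 6.20 and 7.27 in C57Bl/6J (SD 0.56 and 0.67).

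The secreted, nuclear and enzyme members had 0 calls among 6 genes tested in limma. Egfl7, a secreted protein of sprouting vessels, was at 8.05, 8.08, 8.24 and 7.95 in AKR/J and at 7.62, 7.66, 7.99 and 7.67 in C57Bl/6J. C57Bl/6J array 7 overlapped with AKR/J (difference 0.35 ± 0.10 SE, limma adjusted p = 0.06), and its other 3 probe sets gave 0.32, 0.21 and 0.19. Mmrn2, the matrix ligand of Clec14a, gave -0.15 by its brightest probe set and 0.32 and 0.34 by its other 2 tested ones, none of them called. For Vwf, the clotting protein stored in endothelial granules, the difference was 0.10 (interval -0.39 to 0.58).

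Nos3, the endothelial nitric oxide synthase, had the largest difference of the members without being called. It was at 5.17, 5.40, 5.53 and 5.70 in AKR/J and at 4.17, 4.33, 5.02 and 5.12 in C57Bl/6J. The strains did not overlap, but C57Bl/6J arrays 5 and 6 stood apart from 7 and 8 (difference 0.79 ± 0.23 SE, limma adjusted p = 0.06). Nos3 passed with a block for arrays 1, 2, 5 and 6 against 3, 4, 7 and 8 (adjusted p = 0.00597), and without C57Bl/6J array 8 (adjusted p = 0.0382). The MAS5-type signals gave no call (adjusted p = 0.22). The endothelial transcription factor genes Sox18 (difference 0.25, interval -0.14 to 0.63) and Sox17 (difference 0.03, interval -0.13 to 0.19) were not called, and Erg was detected on 2 AKR/J arrays (all 4 at 4.87 to 5.09) and 1 C57Bl/6J array (4.49 to 5.13).

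Over all 44 member probe sets tested, 6 rose and 0 fell in AKR/J by limma (9 and 0 with array weights), where 6.59% of all probe sets were higher and 7.7% were lower. All 6 were the brightest of their gene. For Esam, Tek and Ramp2 no other probe set names the gene alone, and for Cdh5 the other was not tested, so these calls rest on 1 probe set each. A sequence difference between strains under those probes was not tested.

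Many members were high or low on the same arrays. AKR/J array 3 held the highest AKR/J value for 21 of the 28 genes (75%), against 32.5% of all genes tested. C57Bl/6J array 5 held the lowest C57Bl/6J value for 15 of 28 (53.6%), against 25.2% of all genes. The mean of the 28 genes, relative to all 8 arrays, was 0.09, 0.00, 0.29 and 0.11 on AKR/J arrays 1 to 4 and -0.19, -0.15, -0.06 and -0.10 on C57Bl/6J arrays 5 to 8. Array 3 thus stood highest, and the strains did not overlap. Without array 3 the count of members higher in AKR/J was 4 and the median over all 32 was 0.16. The count was also 4 without array 2, 4, 5 or 6. An earlier look at these data had set arrays 1, 2, 5 and 6 against 3, 4, 7 and 8, a division the labels do not give. The strain difference had opposite signs in the 2 sets for 7 of the 32 members, none of them called. The called genes cannot show this, since their strains do not overlap on any array. Between the sets, Tek differed by 0.36 on arrays 1 and 2 minus 5 and 6 and by 0.67 on arrays 3 and 4 minus 7 and 8, and Lyve1 by 0.04 and 1.26.

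**Figure D3:**
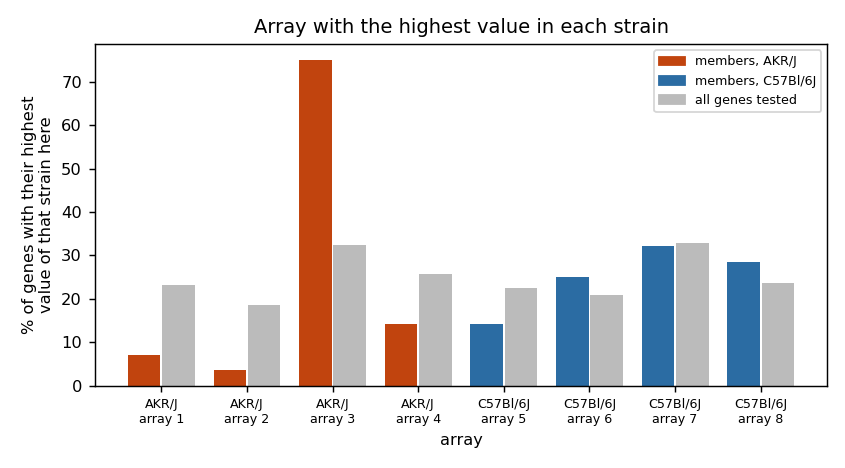
Share of genes (percent) whose highest value within a strain fell on each array, for the 28 member genes tested (coloured bars) and for all 10573 genes tested (grey bars); AKR/J arrays are left of C57Bl/6J arrays. AKR/J array 3 holds 75% of the members against 32.5% of all genes.

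Other genes of vessels, 82 in number and taken from fixed lists, gave 7 higher and 4 lower in AKR/J among 64 tested (10.9% and 6.25%), near the shares of all genes. The 7 became 4 without array 1, 3, 4, 5 or 6, and the 4 became 1 without array 6 and 2 without array 1, 2, 4, 5, 7 or 8. Of 26 further receptor and junction genes tested, 6 rose and 2 fell in AKR/J, with a median of 0.26. The apelin receptor gene Aplnr, which is expressed in growing vessels, was at 7.79, 8.03, 7.81 and 7.64 in AKR/J and at 5.53, 6.10, 6.68 and 6.17 in C57Bl/6J. The strains lay far apart (difference 1.69 ± 0.22 SE; 3.24-fold; limma adjusted p = 0.00195), and the call held without any single array. Aplnr was the only one of the 7 that passed with the MAS5-type signals (1.53). A dimmer probe set of Aplnr gave 0.43 and was not called (adjusted p = 0.192).

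Cd93, a relative of Clec14a that also binds Mmrn2, was at 8.99, 9.01, 8.90 and 8.79 in AKR/J and at 8.47, 8.29, 8.56 and 8.40 in C57Bl/6J (1.41-fold; limma adjusted p = 0.00669). Ramp3, the sister of Ramp2, was at 6.94, 6.87, 7.24 and 7.14 in AKR/J and at 6.46, 6.33, 6.65 and 6.46 in C57Bl/6J (1.49-fold; adjusted p = 0.0106). Both were separated without overlap, whereas Calcrl, the receptor gene whose product pairs with Ramp2 and Ramp3, was not called (7.13 ± 0.33 in AKR/J against 6.89 ± 0.33 in C57Bl/6J; adjusted p = 0.478). Calcrl and the following 4 genes were named after their values were seen: the connexin gene Gja4 (1.63-fold), the Notch ligand gene Jag1 (1.44-fold) and the caveolin gene Cav1 (1.31-fold) were higher in AKR/J, and the tight junction gene Ocln was 1.49-fold lower. With 1 array left out, Jag1 passed only without array 8, Cav1 only without array 7, Ocln only without array 3, and Gja4 only without array 2, 7 or 8; the other such fits gave adjusted p-values up to 0.107. F11r, a junctional adhesion molecule that epithelial cells also express, fell 1.28-fold in AKR/J (limma adjusted p = 0.0161).

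**Figure D4:**
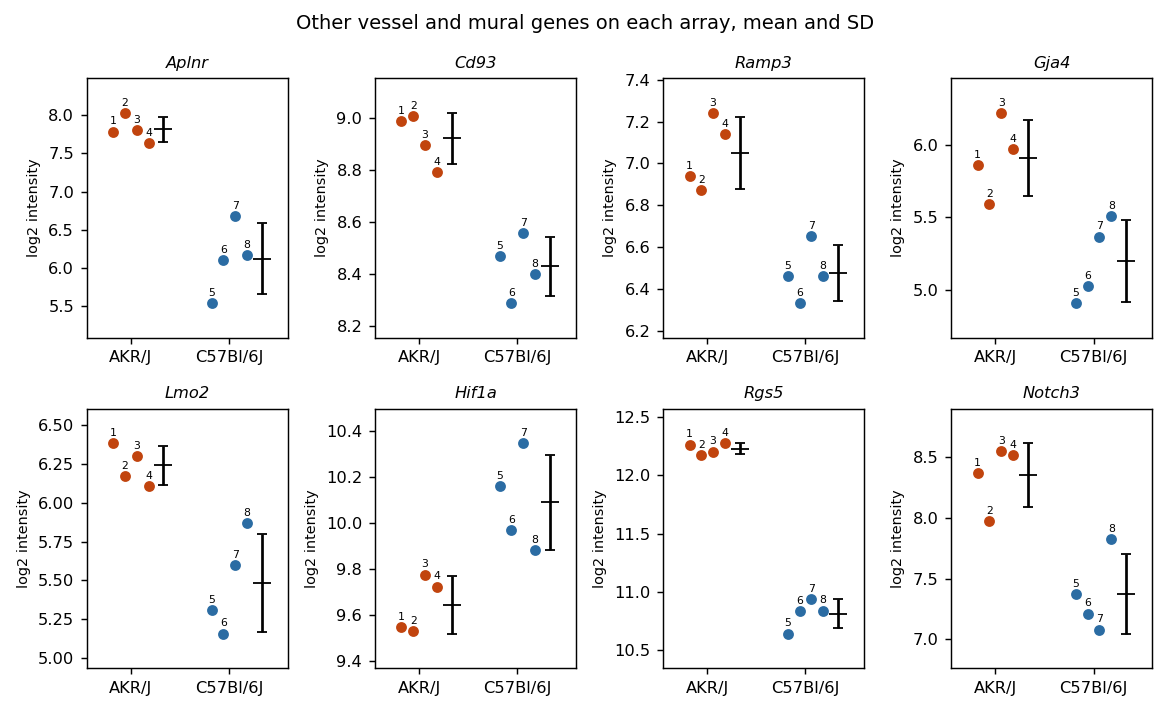
Log2 intensity on each array (points, array number beside each) for the other vessel genes Aplnr, Cd93, Ramp3, Gja4, Lmo2 and Hif1a and for the mural cell genes Rgs5 and Notch3, AKR/J left and C57Bl/6J right; bars are the mean ± SD of 4 arrays. The strains do not overlap in any panel, and Hif1a is the one gene drawn that was lower in AKR/J. Only called genes are drawn. The called vessel genes Jag1 and Cav1 (higher in AKR/J) and Klf4, F11r and Ocln (lower) are not drawn.

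Of 15 further endothelial transcription factor genes tested, Lmo2, a bridging protein of blood and endothelial cells, was 1.69-fold higher in AKR/J (limma adjusted p = 0.0153) and Klf4, induced by blood flow, was 1.64-fold lower (adjusted p = 0.0224). A second probe set of Klf4 gave -0.18 and was not called, and the call was lost without C57Bl/6J array 6 or 8 (adjusted p up to 0.0609). Of 13 genes of the hypoxia response, 0 were higher in AKR/J and 1 was lower, Hif1a, whose protein induces Vegfa under low oxygen. It was at 9.55, 9.53, 9.78 and 9.72 in AKR/J and at 10.16, 9.97, 10.35 and 9.88 in C57Bl/6J (1.36-fold lower, adjusted p = 0.0389). Its other 2 tested probe sets gave 0.01 and -0.02, and its call was lost without array 1, 2, 4, 5, 6 or 7 (adjusted p up to 0.101).

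None of 10 other angiogenic ligand genes passed in limma (0 called; 1 higher and 1 lower at an unadjusted p under 0.05), and their median was -0.27. The brightest were Vegfb, a ligand of Flt1, at 7.81 ± 0.40 in AKR/J against 8.15 ± 0.24 in C57Bl/6J (adjusted p = 0.313), and Sema3c, at 7.32 ± 0.37 in AKR/J against 6.73 ± 0.43 in C57Bl/6J (adjusted p = 0.153). Vegfc, the lymphatic growth factor, named after its values were seen, was at 6.03, 5.86, 6.01 and 6.06 in AKR/J and at 6.36, 6.09, 7.03 and 6.46 in C57Bl/6J, without overlap and with an adjusted p of 0.113.

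Markers of other cells moved with strain on the same arrays. Pericytes wrap capillaries, and of 14 pericyte and fibroblast markers 2 rose and 2 fell in AKR/J. Rgs5, a regulator of G-protein signalling typical of pericytes, was at 12.27, 12.17, 12.20 and 12.28 in AKR/J and at 10.64, 10.84, 10.94 and 10.84 in C57Bl/6J. The gap far exceeded the spread within strains (2.67-fold; limma adjusted p = 2.21e-05), and all 4 of its probe sets were called. Notch3, a Notch receptor of mural cells, was 1.97-fold higher (adjusted p = 0.0117), whereas its dimmer probe set gave 0.38 and was not called. The fibroblast genes Pdgfra (2.48-fold) and Dcn (1.80-fold, lost without array 2, 3, 5, 6 or 8 at adjusted p-values up to 0.0775) were lower in AKR/J, and Pdgfrb, carried by both cell types, was not called (difference 0.35, adjusted p = 0.258).

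The summed intensity of the pericyte and fibroblast list ran from 9180 to 11548 in AKR/J, against 7299 to 9219 in C57Bl/6J. That sum is linear and includes Rgs5, while the log2 differences of the 14 genes had a median of -0.03, with 7 positive and 7 negative. For 18 acinar markers, 17 of them lower in AKR/J (Spink1 and Cela2a among them), the sums ran from 279332 to 330315 in AKR/J, against 480392 to 491284 in C57Bl/6J. For 15 macrophage markers, 8 of them lower in AKR/J (the receptor gene Csf1r and the complement gene C1qc among them), they ran from 2025 to 2545 in AKR/J, against 3520 to 4647 in C57Bl/6J. For 15 cell cycle genes, 11 of them higher in AKR/J (Cdk1 and Top2a among them), they ran from 2349 to 3350 in AKR/J, against 1354 to 1952 in C57Bl/6J. Of 11 endocrine markers 1 was higher in AKR/J (Ppy) and 2 were lower (Ucn3 and Slc2a2). Their sums ran from 199181 to 214484 in AKR/J, against 181993 to 194254 in C57Bl/6J. The log2 differences of these 11 genes had a median of 0.06, with 8 positive and 3 negative. Of 3 tested lymphatic markers other than members 1 was lower, Reln, which was detected on 1 of 4 AKR/J arrays and was not called with the MAS5-type signals. Of 3 tested platelet and red cell markers 0 were called in limma (0 also at an unadjusted p under 0.05), and Gp9, Ppbp, Alas2 and Hba-a1 were not detected on any array. The part of these cell types in the member differences was not tested.

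**Figure D5:**
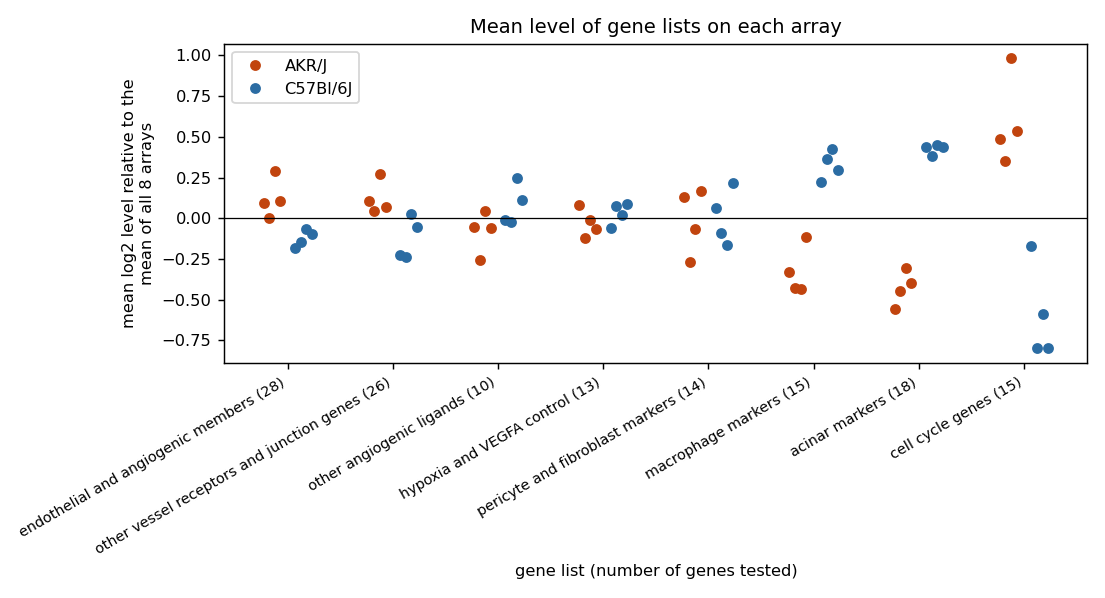
Mean log2 level of each gene list on each array relative to the mean of all 8 arrays (points), AKR/J left of C57Bl/6J within each list; the number of genes tested is in brackets. The endothelial and angiogenic members lie between 0.00 and 0.29 in AKR/J and between -0.19 and -0.06 in C57Bl/6J, while acinar and macrophage markers lie lower and cell cycle genes higher in AKR/J.

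Across the whole arrays, the share of probe sets detected ran from 43.7% to 47.0% in AKR/J, against 45.7% to 48.1% in C57Bl/6J. Across probe sets, r was at least 0.988 between AKR/J arrays, at least 0.985 between C57Bl/6J arrays and at least 0.966 between strains. A sign of RNA quality is the log2 excess of 3′ over 5′ control signal. For Gapdh it lay between -0.33 and -0.24 in AKR/J, against -0.22 to 0.11 in C57Bl/6J. For actin it lay between 1.23 and 1.35 in AKR/J, against 1.16 to 1.41 in C57Bl/6J. The Gapdh ratios did not overlap, and their part in the differences was not tested.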

How the data were processed

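Total RNA of 8 islet pools, 5 µg per array per the labels, was hybridised to Affymetrix mouse arrays. The deposited value table holds linear intensity values made by the authors with GCRMA, per the submitters' processing notes; its version and a genome build are not given in the sources used here. Besides that table, each array has a deposited file with a signal intensity of the MAS5 type and the p-value of a detection test, per the file headers. A probe set was called detected where that p was under 0.05.

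Intensities were log2-transformed with no further normalization, since array quantiles agreed within 0.0904. After 64 controls were left out, 34945 probe sets name 1 gene in the platform annotation, 932 several and 9160 none. Probe sets detected on 4 or more of 8 arrays, 20772 in number, were fitted with limma (lmFit, eBayes; AKR/J minus C57Bl/6J) and adjusted by Benjamini-Hochberg over all of them at 0.05. The fit was tested on simulated data with known answers. All members are named. For each other list, a rule selected up to 4 called genes by smallest p, or the 2 brightest where none was called. Not all genes selected in this way are named in the text. Calcrl, Gja4, Jag1, Cav1, Ocln, Vegfc and Pdgfrb were named outside this rule, as were the undetected platelet and red cell genes. Members and lists were chosen with earlier results of these data known. Of 218 list entries, 206 had a probe set of their own and the others are not analysed here. The files used here give no scan date or other batch. The alternatives tried are in the closing section. R 4.3.3, limma 3.58.1, Python 3.11.15 and matplotlib 3.10.9 were used.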

Additional observations from a re-analysis of the deposited data

Results flagged for a closer look

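Of 68 groups of 4 arrays screened (the 28 tested member genes and 6 group means, in each strain), 3 had an array far from the other 3, where about 1 in 20 is flagged by chance. Cldn5 was at 3.29 on AKR/J array 4, with the nearest array at 2.90, and at 3.21 on C57Bl/6J array 8, with the nearest at 2.87. Egfl7 was at 7.99 on C57Bl/6J array 7, with the nearest at 7.67.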

How the results depend on the processing

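The 6 called members kept their direction in 114 of 114 values over 19 alternatives and their call in 87. Ramp2 kept its call in all 19. Cdh5 (adjusted p = 0.0605) and Esam (0.196) lost theirs with the MAS5-type signals only, where Tek (0.16), Acvrl1 (0.155) and Clec14a (0.0742) were not called either. Of the other 26 members, Pecam1, Robo4, Egfl7 and Nos3 passed under some alternative (3, 5, 4 and 5 of 19), and 32 of 494 values, over 15 genes, changed sign without being called. The count of members higher in AKR/J was 3 with no filter on dim probe sets, 1 with the MAS5-type signals and 10 centred on array medians; that of member probe sets was 3, 2 and 12, and 10 after a further quantile normalization. With the MAS5-type signals the member median was 0.24 and the ligand median -0.10, which was 0.086 with the mean of all tested probe sets of a gene. Other vessel genes higher in AKR/J numbered 1 with the MAS5-type signals, and those lower numbered 1 with no filter. Leaving out each array gave 4 to 6 members and 4 to 6 member probe sets higher, 0 lower, ligand medians from -0.0453 to 0.0882, and 4 to 7 other vessel genes higher and 1 to 6 lower. The share of all probe sets called moved as well, from 14.3% to between 4.64% (no filter) and 17.7% (block for arrays 1, 2, 5 and 6 against 3, 4, 7 and 8). The cause of these changes was not tested. No paired analysis was possible because the strains share no replicate number. The 4 untested members were detected on too few arrays for a test.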
